A study of Mus musculus with 4 samples.

Results

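The 375 nuclei described here, from mouse deep cerebellar nuclei, passed a count gate for inhibitory neurons with Oprk1, Bcl11a, Cntnap3 or Slit1 transcripts. They were drawn from 21494 nuclei in 4 single-nucleus RNA sequencing libraries. A nucleus was taken if it had at least 2 counts of Gad1 and Gad2 together and at least 2 counts of Oprk1, Bcl11a, Cntnap3 and Slit1 together. The second sum also had to be larger than that of Slc6a5, Pax2, Chrm2 and Hcrtr2, genes of glycinergic neurons. Nuclei that the submitters had placed in a separate table of glutamatergic neurons, named vglut2, were not taken. The tissue was micro-dissected from slices of C57BL/6J mice, and the labels name no step that sorted the nuclei. In the Ucn3-Cre line Cre comes from a transgene with sequence of the urocortin 3 gene, and in the vGluT2-Cre line from a transgene with sequence of the glutamate transporter gene Slc17a6. Mice of both lines were crossed with Ai32, which makes channelrhodopsin fused to EYFP where Cre has acted, so all libraries share that reporter. Ucn3-Cre replicate 1 came from a female and replicate 2 from a male, both aged 3 months. The vGluT2-Cre line gave a male of 2 months for replicate 1 and a female of 2.5 months for replicate 2. Nuclei of Ucn3-Cre replicate 1 were isolated on an iodixanol gradient and those of the other 3 libraries through a sucrose cushion. Line and age therefore cannot be told apart, and extraction differed for 1 library. The labels do not say whether a library held 1 animal or several, so the p-values refer to these 4 libraries, not to a known number of animals.

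The deep cerebellar nuclei carry the output of the cerebellum. Their large glutamatergic neurons project to the thalamus and brainstem. Small GABAergic neurons among them project to the inferior olive, the source of climbing fibres, and glycinergic neurons form a further inhibitory class. GABAergic neurons make GABA with Gad1 and Gad2 and load it into vesicles with Slc32a1. Oprk1 is the kappa opioid receptor, a Gi-coupled receptor for dynorphins. Bcl11a is a zinc finger transcription factor, Cntnap3 a contactin-associated membrane protein and Slit1 a secreted ligand of Robo receptors. Sox14 is a transcription factor known as a marker of the neurons that project to the olive.

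The 4 libraries gave 41 and 97 such nuclei (Ucn3-Cre replicates 1 and 2) and 132 and 105 (vGluT2-Cre replicates 1 and 2). They were compared with the 480 nuclei of the vglut2 table and with the 868 other nuclei that had at least 2 counts of Gad1 and Gad2. The 868 nuclei are called other Gad nuclei below. Libraries totalled 9645649 to 19850830 counts. Median counts per nucleus were 4928, 5084, 6045.5 and 8103 in the Oprk1/Bcl11a nuclei of the 4 libraries, in the order given above. Over all libraries the medians were 6160 in the Oprk1/Bcl11a nuclei, 9897.5 in the vglut2 nuclei and 5019.5 in the other Gad nuclei. Of the 15632 genes in the tables, 4186 were listed at 0 in every nucleus of at least 1 library, and 1617 of these in exactly 3 libraries. A value of 0 in every group of a library is therefore written as listed at 0. Barcodes found in more than 1 library numbered 41, and 3 of the Oprk1/Bcl11a nuclei carried one. The highest Scrublet scores, a measure of likeness to simulated doublets, took in 18 of the 375 nuclei. Below, 4 values in a row are Ucn3-Cre replicates 1 and 2 and then vGluT2-Cre replicates 1 and 2. CPM are the summed counts of a gene over a group of nuclei in a library, scaled to a total of 1000000 counts.

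The gating genes define the nuclei, so their values are given as a description only. Slit1 had at least 1 count in 277 of the 375 nuclei, Cntnap3 in 224, Oprk1 in 215 and Bcl11a in 189. Only 1 of the 4 genes was detected in 47 nuclei, 2 in 157, 3 in 140 and all 4 in 31. No single gene carried the set: Slit1 alone had the most counts in 88 nuclei, Cntnap3 in 68, Bcl11a in 40 and Oprk1 in 37, and 142 nuclei had ties. Oprk1 stood at 128, 126, 145 and 146 CPM, and Slit1 at 243, 209.8, 165 and 238 CPM. Just inside the gate, 86 nuclei had a sum of exactly 2 for the 4 genes, and 65 had exactly 2 counts of Gad1 and Gad2. Just outside it, 117 of the other Gad nuclei had a sum of exactly 1, and 44 nuclei met the rest of the rule with 1 count of Gad1 and Gad2. In 201 of the 375 nuclei no count of Slc6a5, Pax2, Chrm2 or Hcrtr2 was present. Of the vglut2 nuclei, 6 met the same sums and were left in their own table.

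Genes that took no part in the gate fitted the label of inhibitory neurons. Slc32a1, the vesicular GABA transporter, stood at 172, 232, 159 and 238 CPM in the Oprk1/Bcl11a nuclei. In the vglut2 nuclei it stood at 1.33, 13.7, 15.6 and 20.8 CPM, and in the other Gad nuclei at 148, 261, 199 and 245 CPM. The 5 pan-neuronal markers (Rbfox3, Snap25, Syt1, Stmn2 and Nefl) were all detected in every library and summed to 1353 to 1636 CPM in the Oprk1/Bcl11a nuclei, against 2349 to 2933 CPM in the vglut2 nuclei. The 3 measured markers of glutamatergic nuclear neurons (Slc17a6, Lhx9 and Meis2) summed to 16.3 to 48.7 CPM, against 551 to 626 CPM in the vglut2 nuclei. In the other Gad nuclei the sum was 34.6 to 62.4 CPM, which overlapped. Because the vglut2 table was left out of the set, the contrast with it is no independent support for the label. The 6 Purkinje cell markers summed to 92.9 to 134 CPM, against 70.4 to 115 CPM in the vglut2 nuclei and 91.3 to 195 CPM in the other Gad nuclei. One of them, Skor2, was listed at 0 in Ucn3-Cre replicates 1 and 2 and vGluT2-Cre replicate 2, so it could be read in vGluT2-Cre replicate 1 only, where it was at 0 in the Oprk1/Bcl11a nuclei and at 0.519 CPM in the other Gad nuclei. Markers of molecular layer interneurons (6 genes) summed to 1026 to 1265 CPM, against 2166 to 3026 CPM in the other Gad nuclei and 955 to 1180 CPM in oligodendrocytes. Ptprk supplied 557 to 779.6 CPM of the sum in the Oprk1/Bcl11a nuclei. The list for unipolar brush cells reached 1619 to 1879 CPM through Plcb4 (1567 to 1791 CPM), whereas Otx2 was at 0 in all 4 libraries and Eomes in 3, in 1 of which, Ucn3-Cre replicate 2, it was listed at 0. Glial transcripts were present: 6 oligodendrocyte markers summed to 380.1 to 650.1 CPM in the Oprk1/Bcl11a nuclei, 75.7 to 188 CPM in the vglut2 nuclei and 697 to 1682 CPM in the other Gad nuclei. The sum of 5 granule cell markers was 66.4 to 314 CPM, with the highest value in Ucn3-Cre replicate 1. The 4 endothelial markers summed to 48.7 and 126 CPM in Ucn3-Cre replicates 1 and 2, against 4.83 and 13.9 CPM in vGluT2-Cre replicates 1 and 2. The 4 fibroblast markers summed to at most 3.71 CPM. The 4 genes of Purkinje layer interneurons summed to 439 to 572 CPM, against 590.4 to 704 CPM in the other Gad nuclei and 326 to 442 CPM in the vglut2 nuclei. In oligodendrocytes the sum was 2433 to 3077 CPM, so it did not mark a type of neuron here. Of 4 Golgi cell genes outside the gate, Grm2 and Gjd2 were listed at 0 in 3 libraries, and in those libraries the Oprk1/Bcl11a nuclei held counts of 1 gene of the list only. The sum was 22.1 to 39.0 CPM in the Oprk1/Bcl11a nuclei, 91.6 to 115 CPM in the vglut2 nuclei and 60.1 to 112 CPM in the other Gad nuclei, so it did not separate inhibitory from glutamatergic nuclei. The 6 astrocyte markers summed to 99.9 to 137 CPM in the Oprk1/Bcl11a nuclei, 22.2 to 42.4 CPM in the vglut2 nuclei and 126 to 638 CPM in the other Gad nuclei. In the Oprk1/Bcl11a nuclei microglial markers summed to 88.5 to 111 CPM, oligodendrocyte precursor markers to 19.3 to 75.2 CPM and mural cell markers to 0 to 63.1 CPM. Each comparison was also made without nuclei of 5 or more glial counts, an alternative chosen after seeing the data. Of the 375 nuclei, 56 had that many and 106 had no glial count.

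Sox14 (ENSMUSG00000053747, GRCm38 chromosome 9, 99874106 to 99876170, minus strand), the olive-projecting neuron factor, could be read in 1 library only. It was listed at 0 in every nucleus of Ucn3-Cre replicates 1 and 2 and of vGluT2-Cre replicate 1. In vGluT2-Cre replicate 2 it was counted 91 times over 4974 nuclei. The Oprk1/Bcl11a nuclei held 58 of these counts, 63.7%, although they held 4.34% of all counts of that library. Sox14 was detected in 41 of 105 Oprk1/Bcl11a nuclei (39.0%), against 3 of 82 vglut2 nuclei and 14 of 181 other Gad nuclei (7.73%). Among 2564 oligodendrocytes of the same library, which should lack the gene, 5 had a count (0.195%). Median depth in this library was 8103 counts in the Oprk1/Bcl11a nuclei and 2972 in the oligodendrocytes. With every nucleus thinned to 3000 counts the share was 20.0% of 105 Oprk1/Bcl11a nuclei, 4.38% of 160 other Gad nuclei and 0.160% of 1253 oligodendrocytes. All 14 of the other Gad nuclei with Sox14 fell in the 2 clusters that also held most Oprk1/Bcl11a nuclei, clusters 0 and 6 below. In cluster 0 Sox14 was detected in 8 of 16 other Gad nuclei and 19 of 43 Oprk1/Bcl11a nuclei of this library. In cluster 6 it was detected in 6 of 10 and 20 of 54. Within these clusters Sox14 was therefore not particular to the Oprk1/Bcl11a nuclei. As a single library holds the counts, no replicate check of Sox14 was possible.

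The nuclei of the 3 groups were clustered together with the 10 gating genes left out, which gave 18 clusters of 1723 nuclei. Clusters 0 and 6 held 183 and 147 of the Oprk1/Bcl11a nuclei, 88.0% together. Cluster 0 was led by Zfhx4, Col25a1 and Zfhx3, and cluster 6 by Foxp2, Slc24a4 and Ramp3. Both were present in each library, with 16, 52, 72 and 43 nuclei of the set in cluster 0 and 14, 32, 47 and 54 in cluster 6. Of the vglut2 nuclei, 2 fell in these clusters. So did 174 of the 868 other Gad nuclei (20.0%), of which 55 had no count of the 4 gating genes and 83 had 1. The median depth of these 174 nuclei was 4902.5 counts, against 6009.5 in the 330 Oprk1/Bcl11a nuclei of the same clusters. Outside them, 18 of the Oprk1/Bcl11a nuclei lay in cluster 5, led by the granule cell gene Gabra6 with Reln and Etv1. A further 16 lay in cluster 11, led by Prr5l and St18 with the myelin gene Mag, and 6 in cluster 14, led by Slc4a4 and Stk32a with the astrocyte gene Aqp4. The remaining 5 were spread over clusters 2, 4 and 12.

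**Figure D1:**
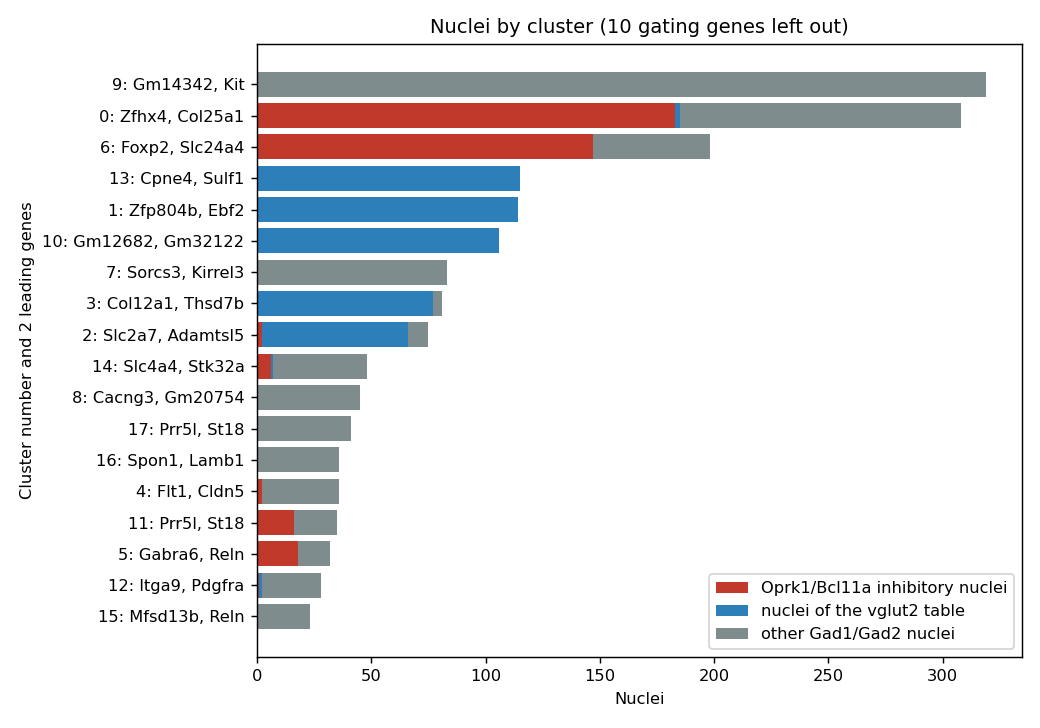
Number of nuclei (x axis) in each of 18 clusters (y axis, with 2 leading genes each), coloured by group: Oprk1/Bcl11a inhibitory nuclei, nuclei of the vglut2 table and other Gad1/Gad2 nuclei. Oprk1/Bcl11a nuclei concentrate in clusters 0 and 6, with 183 and 147 nuclei, which they share with other Gad nuclei and with only 2 vglut2 nuclei.

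Within the set, the nuclei of clusters 6 and 0 shared Zfhx3, a homeodomain and zinc finger transcription factor, at 2392, 1698, 1733 and 1818 CPM in cluster 6 and 2041, 1498, 1817 and 1879.6 CPM in cluster 0. Because these genes took part in the clustering, the values describe the clusters and are not tested. Foxp2, a forkhead transcription factor, stood at 601, 484, 866 and 493 CPM in cluster 6 and 117, 134, 203 and 99.2 CPM in cluster 0. Its 4 values in cluster 6 lay wholly above those in cluster 0. Ramp3, which modifies the calcitonin receptor family, was at 131, 203, 179 and 220.3 CPM in cluster 6 and 43.7, 106, 86.1 and 117 CPM in cluster 0. In the opposite direction, the collagen gene Col11a1 was at 91.5, 89.7, 92.6 and 98.7 CPM in cluster 6 and 292, 402, 301 and 248 CPM in cluster 0. Nxph1, a secreted ligand of neurexins, was at 78.4, 173, 195 and 163 CPM in cluster 6 and 525, 449, 521 and 549 CPM in cluster 0. The gating genes, which took no part in clustering, lay closer together, with Oprk1 at 131, 167, 155 and 158 CPM in cluster 6 and 131, 130.1, 151 and 131 CPM in cluster 0. Bcl11a was at 131, 161, 172 and 119 CPM in cluster 6 and 87.5, 110.4, 88.5 and 87.6 CPM in cluster 0, without overlap. Sox14 was found in both, in 20 of 54 nuclei of cluster 6 and 19 of 43 of cluster 0 in vGluT2-Cre replicate 2.

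**Figure D2:**
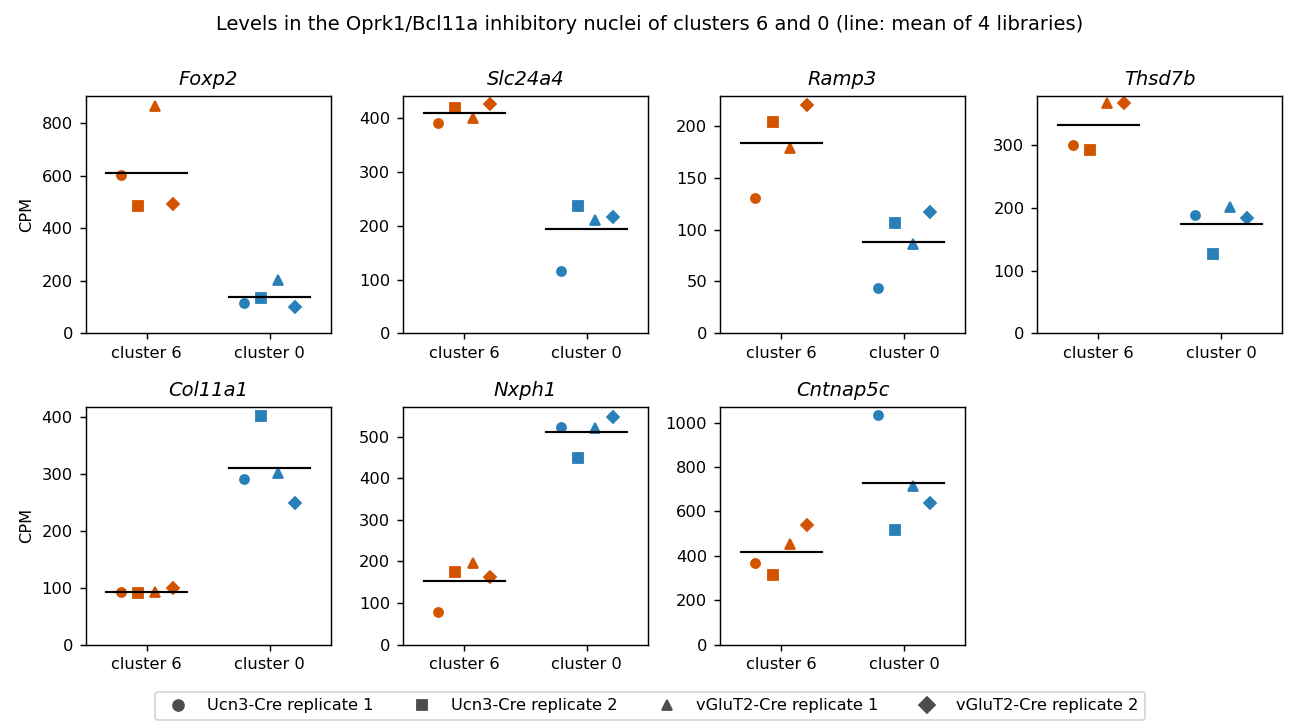
CPM (y axis) of 7 genes in the Oprk1/Bcl11a nuclei of clusters 6 and 0 (x axis), 1 point per library and a line at the mean of 4 libraries. Foxp2, Slc24a4, Ramp3 and Thsd7b lie higher in cluster 6 and Col11a1 and Nxph1 lower, with no overlap between the clusters, while the Cntnap5c values overlap.

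Against the vglut2 nuclei, the Oprk1/Bcl11a nuclei had far more Ramp3, Slc24a4, Zfhx4 and Zfhx3 and far less Ebf2, Ptprt and Meis2. Counts summed per library were tested with edgeR's quasi-likelihood test, with the library as block and Benjamini-Hochberg adjustment over 10638 genes. Of these, 1654 genes were higher (15.5%) and 1709 lower (16.1%) at adjusted p under 0.05, together 31.6%. The values of the 2 groups did not overlap between any libraries for 21.9% of genes. The vglut2 nuclei had been selected by the submitters from the same counts, so these p-values are too small. With the library as block, they weigh the difference within libraries against how much that difference varied from library to library. Oligodendrocyte and astrocyte marker sums were also higher in the Oprk1/Bcl11a nuclei than in the vglut2 nuclei, without overlap, as given above. Without nuclei of 5 or more glial counts 3162 genes passed, 2955 of them among the 3363.

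Ramp3 (ENSMUSG00000041046, GRCm38 chromosome 11, 6658521 to 6677475, plus strand) stood at 111, 145, 113 and 168 CPM in the Oprk1/Bcl11a nuclei and at 1.33, 0.623, 1.11 and 3.58 CPM in the vglut2 nuclei (log2 fold change 6.25, SE 0.25, adjusted p = 2.01e-17). The sodium-calcium-potassium exchanger Slc24a4 (GRCm38 chromosome 12, 102128733 to 102267091, plus strand) stood at 226, 286, 294 and 326 CPM in the Oprk1/Bcl11a nuclei and 2.66, 6.86, 7.24 and 2.15 CPM in the vglut2 nuclei (log2 fold change 5.75, SE 0.18, adjusted p = 1.01e-19). For both genes every library of the Oprk1/Bcl11a nuclei lay far above every library of the vglut2 nuclei. Zfhx4 (GRCm38 chromosome 3, 5218526 to 5415857, plus strand), like Zfhx3 a homeodomain and zinc finger factor, stood at 522, 546, 774 and 648 CPM in the Oprk1/Bcl11a nuclei and 6.64, 7.48, 19.5 and 14.3 CPM in the vglut2 nuclei (log2 fold change 5.61, SE 0.13, adjusted p = 1.11e-22). Zfhx3 stood at 1977, 1437, 1728 and 1826 CPM in the Oprk1/Bcl11a nuclei and 35.9, 79.8, 148 and 107 CPM in the vglut2 nuclei (log2 fold change 4.12, SE 0.15, adjusted p = 1.37e-18). At least 1 Zfhx3 count was found in 97.6 to 100% of Oprk1/Bcl11a nuclei per library, against 19.3 to 45.1% of vglut2 nuclei and 14.2 to 18.6% of the shallower oligodendrocytes. Thinned to 3000 counts, the shares were 92.3 to 97.7% of Oprk1/Bcl11a nuclei, 10.5 to 17.1% of vglut2 nuclei and 20.9 to 31.2% of oligodendrocytes. The thinned share in the Oprk1/Bcl11a nuclei was above both others in all 4 libraries. In the vglut2 nuclei it was below the oligodendrocyte share in all 4, so the oligodendrocyte share is not a common background for this gene.

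Among the other leading genes, the metabotropic glutamate receptor gene Grm3 averaged 1003 ± 105 CPM in the Oprk1/Bcl11a nuclei and 51.2 ± 9.21 CPM in the vglut2 nuclei (SD, n = 4 each), a log2 difference of 4.27 ± 0.10 (SE). Adarb2, an RNA-editing enzyme homologue and a marker of interneurons in the cortex, averaged 1296 ± 91.1 CPM in the Oprk1/Bcl11a nuclei and 88.4 ± 20.5 CPM in the vglut2 nuclei (log2 difference 3.85 ± 0.09). Syt6, a synaptotagmin, averaged 153 ± 29.7 CPM in the Oprk1/Bcl11a nuclei and 4.66 ± 3.83 CPM in the vglut2 nuclei (log2 difference 4.77 ± 0.23). Pdzd2, a PDZ domain protein, the receptor tyrosine phosphatase gene Ptprk, Fxyd6, which modulates the sodium pump, and the choline transporter-like gene Slc44a5 rose by log2 differences of 4.65 ± 0.10, 4.08 ± 0.13, 3.66 ± 0.19 and 3.66 ± 0.11 (SE). For each of these 7 genes all 4 libraries of the Oprk1/Bcl11a nuclei lay above all 4 of the vglut2 nuclei.

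In the opposite direction, Ebf2, a helix-loop-helix transcription factor, stood at 13.3, 3.71, 0 and 1.16 CPM in the Oprk1/Bcl11a nuclei and 320.1, 126, 137 and 138 CPM in the vglut2 nuclei (log2 fold change -5.90, SE 0.29, adjusted p = 7.89e-16). The homeodomain factor Meis2 stood at 35.4, 14.9, 4.83 and 4.65 CPM in the Oprk1/Bcl11a nuclei and averaged 366 ± 27.4 CPM in the vglut2 nuclei (log2 fold change -5.18, SE 0.20, adjusted p = 9.58e-18). Ptprt, a receptor tyrosine phosphatase of synapses, stood at 115, 35.3, 6.03 and 4.65 CPM in the Oprk1/Bcl11a nuclei and 1113, 864, 1009 and 814 CPM in the vglut2 nuclei (log2 fold change -5.34, SE 0.25, adjusted p = 3.26e-16). Its highest value in the Oprk1/Bcl11a nuclei was that of Ucn3-Cre replicate 1, still below every vglut2 value. The same library was highest for the calcium sensor of vesicle release Syt1, at 314, 44.6, 30.2 and 40.7 CPM in the Oprk1/Bcl11a nuclei against 1224, 976, 1508 and 1090.4 CPM in the vglut2 nuclei (log2 difference -4.16 ± 0.25). The copine gene Cpne4, the secreted BMP antagonist gene Vwc2, the zinc finger genes Zfp804b and Rreb1, the coronin gene Coro6, Ankfn1 and the unconventional myosin gene Myo16 were lower by log2 differences of -3.94 ± 0.16 (Myo16) to -4.66 ± 0.30 (Cpne4). In each of them the groups did not overlap.

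**Figure D3:**
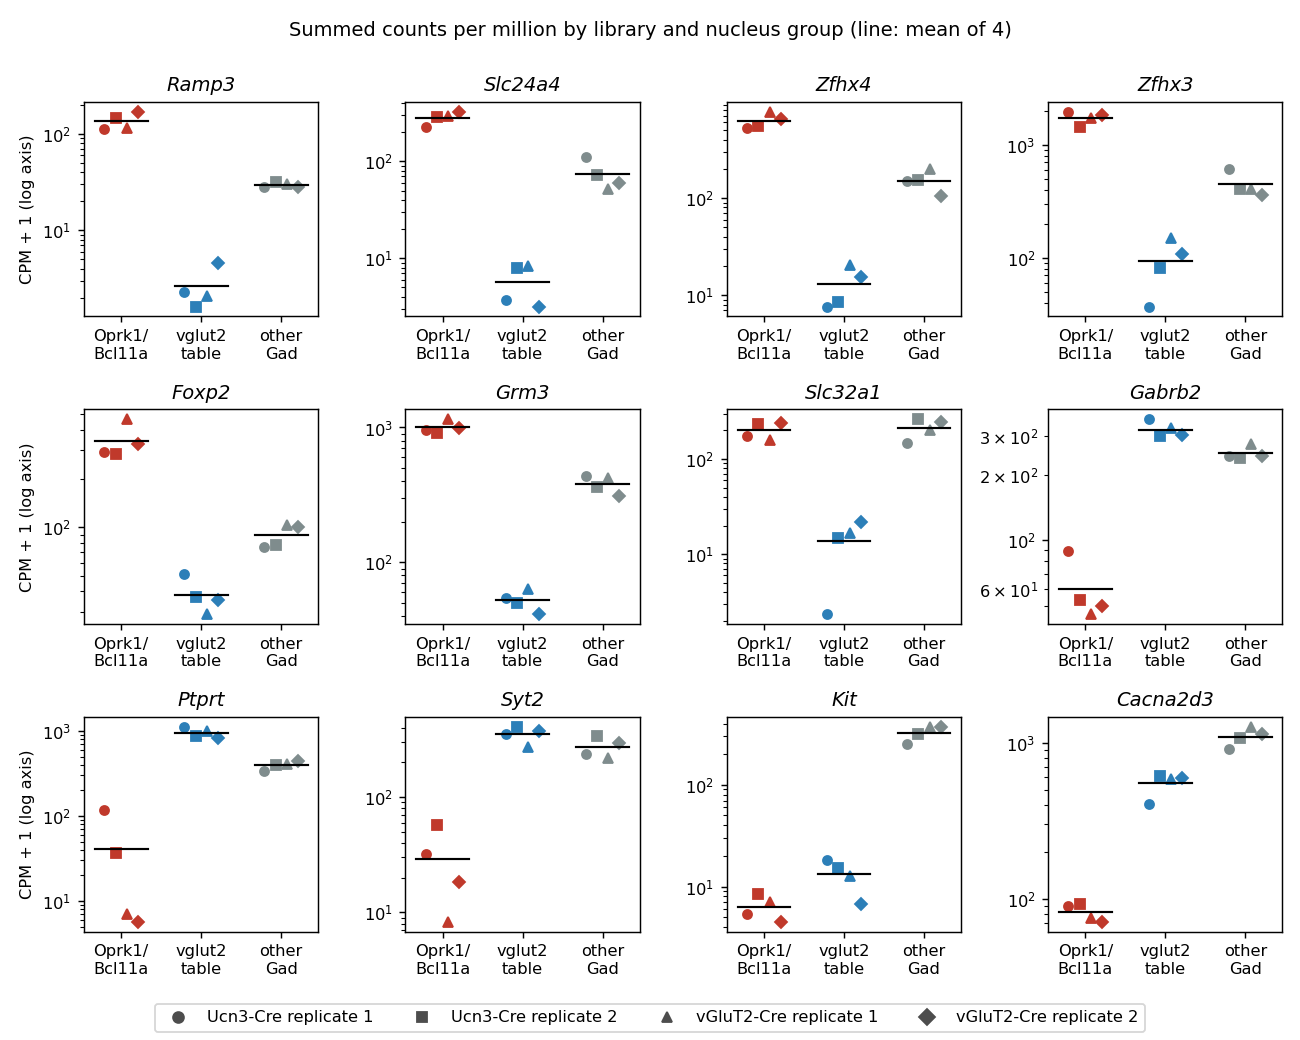
CPM plus 1 (y axis, log scale) of 12 genes in the Oprk1/Bcl11a inhibitory nuclei, the nuclei of the vglut2 table and the other Gad nuclei (x axis), 1 point per library with a line at the mean of 4. Ramp3, Slc24a4, Zfhx4, Zfhx3, Foxp2 and Grm3 are highest and Gabrb2, Ptprt, Syt2 and Cacna2d3 lowest in the Oprk1/Bcl11a nuclei, while Slc32a1 overlaps the other Gad nuclei.

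Slc32a1, which loads GABA into vesicles, was far higher than in the vglut2 nuclei. Over all genes tested in that comparison, 15.5% rose and 16.1% fell. Of 9 tested genes of GABA and glycine transmission, 5 rose and none fell against the vglut2 nuclei, with a list median of 0.37 on the log2 scale beside -0.01 over all genes tested. Among them were Slc32a1 (log2 fold change 3.77, SE 0.18, adjusted p = 1.02e-15), the GABA transporter Slc6a11 (2.51 ± 0.29 on the log2 scale), the glycine transporter Slc6a9 (0.64 ± 0.23, adjusted p = 0.036) and Abat, which degrades GABA. Of 3 genes of glutamate and monoamine transmission all fell, among them the vesicular glutamate transporter Slc17a6 (13.3, 26.0, 12.1 and 11.6 CPM in the Oprk1/Bcl11a nuclei and 169, 196, 249 and 259 CPM in the vglut2 nuclei) and the glutamate transporter Slc1a1 (-0.35 ± 0.12). The Slc17a6 contrast follows in part from setting the vglut2 table apart. Slc6a9 and Slc1a1 did not pass under several alternatives. Astrocytes also carry the transporters Slc6a11 and Slc6a9, and astrocyte marker sums moved with these genes (99.9 to 137 CPM in the Oprk1/Bcl11a nuclei, 22.2 to 42.4 CPM in the vglut2 nuclei). Among the markers, Aqp4, the astrocyte water channel, rose by 2.00 ± 0.35 on the log2 scale. Without nuclei of 5 or more counts of oligodendrocyte and astrocyte markers, Slc6a11 passed at 2.28 on the log2 scale and Slc32a1 at 3.96, whereas the call of Slc6a9 was lost at 0.48. Only 106 of the 375 Oprk1/Bcl11a nuclei had no such count, so glial transcripts remained after this cut. Their part in these values was not tested.

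Transcription factors split evenly, with 14 of 32 tested higher and 14 lower against the vglut2 nuclei, beside 15.5 and 16.1% of all genes tested. Besides Zfhx3 and Zfhx4, the LIM homeodomain factors Lhx5 (31.0, 52.0, 22.9 and 27.9 CPM in the Oprk1/Bcl11a nuclei, 0, 1.25, 1.67 and 0 CPM in the vglut2 nuclei) and Lhx1 (31.4 to 53.1 CPM in the Oprk1/Bcl11a nuclei, 0 to 6.68 CPM in the vglut2 nuclei) rose, as did Foxp2 (3.28 ± 0.15 on the log2 scale). Both LIM factors are known from GABAergic cerebellar lineages. Meis2 and Lmx1a, known from the lineage of the rhombic lip, were among those that fell. Lmx1a, named after its values were seen, stood at 0 to 3.62 CPM in the Oprk1/Bcl11a nuclei and 25.2 to 39.5 CPM in the vglut2 nuclei.

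Receptors differed in kind rather than in one direction. Of 18 GABA and glycine receptor genes, 7 rose and 6 fell against the vglut2 nuclei, beside 15.5 and 16.1% of all genes tested. The ionotropic GABA receptor subunit genes Gabra2 and Gabrb2 fell, with log2 differences of -3.34 ± 0.23 and -2.61 ± 0.13 (SE). Gabrb2 stood at 88.5, 52.0, 44.6 and 48.8 CPM in the Oprk1/Bcl11a nuclei and 359, 299, 327 and 302 CPM in the vglut2 nuclei, with no overlap. Gabbr1, a subunit of the metabotropic GABA receptor, rose (199 to 271 CPM in the Oprk1/Bcl11a nuclei, 135 to 155 CPM in the vglut2 nuclei). Of 23 glutamate receptor genes, 11 rose and 9 fell. The kainate receptor gene Grik3 rose by 2.54 ± 0.11 and the NMDA receptor gene Grin2c by 2.69 ± 0.23 on the log2 scale, and Grm8, a presynaptic metabotropic receptor, fell (-2.93 ± 0.13). The AMPA receptor gene Gria3 stood at 212, 139, 200.3 and 137 CPM in the Oprk1/Bcl11a nuclei and 684, 559, 788 and 546 CPM in the vglut2 nuclei.

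Of 12 peptide and amine receptor genes, 4 rose and 4 fell against the vglut2 nuclei, beside 15.5 and 16.1% of all genes tested. The cannabinoid receptor Cnr1 stood at 70.8, 68.7, 67.6 and 98.7 CPM in the Oprk1/Bcl11a nuclei and 14.6, 21.8, 18.4 and 27.2 CPM in the vglut2 nuclei (log2 fold change 1.82, SE 0.18, adjusted p = 1.99e-09). The leptin receptor Lepr stood at 53.1, 11.1, 30.2 and 34.9 CPM in the Oprk1/Bcl11a nuclei and 6.64, 3.12, 9.46 and 7.88 CPM in the vglut2 nuclei (log2 fold change 2.04, SE 0.31, adjusted p = 6.3e-06). The dopamine receptor Drd2, listed at 0 in the 3 groups of Ucn3-Cre replicate 1, was at 35.3, 29.0 and 36.0 CPM in the Oprk1/Bcl11a nuclei of the other 3 libraries and at no more than 3.90 CPM in the vglut2 nuclei. The serotonin receptor Htr4 was at 0 to 4.42 CPM in the Oprk1/Bcl11a nuclei and 33.7 to 42.5 CPM in the vglut2 nuclei (-4.51 ± 0.42 on the log2 scale).

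Of the opioid system, Oprk1 itself belongs to the gate. Its other tested genes were few, and 31.6% of all genes tested were called. Of 3 other tested genes against the vglut2 nuclei 1 fell, the delta receptor Oprd1 (0, 0, 1.21 and 3.49 CPM in the Oprk1/Bcl11a nuclei, 43.8, 31.2, 17.3 and 33.7 CPM in the vglut2 nuclei, log2 fold change -4.07, SE 0.46, adjusted p = 4.68e-08). The mu receptor Oprm1 was at 35.4, 5.57, 12.1 and 11.6 CPM in the Oprk1/Bcl11a nuclei and 10.6, 8.11, 11.7 and 15.8 CPM in the vglut2 nuclei, a log2 difference of 0.10 ± 0.38 that did not pass (adjusted p = 0.879) and whose sign turned under other settings. Penk, the enkephalin precursor, was at 0, 16.7, 6.03 and 6.97 CPM in the Oprk1/Bcl11a nuclei and was too low in both groups to be tested against the vglut2 nuclei. Pdyn, the dynorphin precursor, was not analysed here. Of 7 neuropeptide and granin genes, the granins Scg2, Scg5 and Chgb rose (1.22 ± 0.12, 0.38 ± 0.09 and 0.57 ± 0.13 on the log2 scale) and none fell. Chgb did not pass with values rounded up.

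Channel genes also went both ways against the vglut2 nuclei, with 12 of 30 potassium and HCN channel genes higher and 12 lower, and 8 of 21 sodium and calcium channel genes in each direction. Over all genes tested, 15.5% were higher and 16.1% lower. The potassium channel genes Kcna1 (-2.35 ± 0.15) and Kcnj3 (-2.63 ± 0.13) and the auxiliary subunit Kcnip4 (-2.35 ± 0.13) fell (log2 differences with SE). The calcium channel subunit Cacna2d3 stood at 88.5, 91.0, 73.6 and 69.7 CPM in the Oprk1/Bcl11a nuclei and 406, 607, 584 and 593 CPM in the vglut2 nuclei (log2 fold change -2.89, SE 0.11, adjusted p = 8.08e-18). Genes of large, fast projection neurons went 1 way: 8 of 11 fell and none rose, with a median of -0.90 beside -0.01 over all genes tested. Among them, the fast vesicle sensor Syt2 stood at 31.0, 55.7, 7.24 and 17.4 CPM in the Oprk1/Bcl11a nuclei and 352, 405, 269 and 369.7 CPM in the vglut2 nuclei (log2 fold change -3.87, SE 0.18, adjusted p = 5.85e-16). The neurofilament gene Nefm (13.3 to 91.0 CPM in the Oprk1/Bcl11a nuclei, 118 to 367 CPM in the vglut2 nuclei), the secreted phosphoprotein gene Spp1 (-1.86 ± 0.15) and the vesicle SNARE gene Vamp1 (-1.34 ± 0.18) fell as well.

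Among wiring genes, 12 of 32 axon guidance genes rose and 12 fell, and 16 of 41 contactin, neurexin and cadherin family genes rose and 17 fell against the vglut2 nuclei. The shares over all genes tested were 15.5 and 16.1%. The netrin-G genes Ntng1 (190.2, 197, 113 and 153 CPM in the Oprk1/Bcl11a nuclei, 1475, 1463, 1499.6 and 1459 CPM in the vglut2 nuclei) and Ntng2 (-3.23 ± 0.20 on the log2 scale) and the netrin receptor Unc5d (-3.24 ± 0.14) fell. Nrxn3, a presynaptic neurexin, stood at 9916, 9965, 13629 and 11001 CPM in the Oprk1/Bcl11a nuclei and 2017, 1584, 2852 and 2079 CPM in the vglut2 nuclei (log2 fold change 2.37, SE 0.07, adjusted p = 4.72e-20). Nlgn1, a postsynaptic neuroligin, fell (-1.96 ± 0.08), and Cntnap5c (1.62 ± 0.09) and Cdh4 (1.87 ± 0.11) rose. DESeq2 called 1900 genes in this comparison, against 3363 with edgeR, and a fit without the library block 1942.

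Against the other Gad nuclei, the Oprk1/Bcl11a nuclei again had more Ramp3, Slc24a4, Zfhx4 and Zfhx3, and far less Ntn1, Kit, Bmp6 and Prom1. This comparison sets them against the inhibitory nuclei outside the gate, of which 696 had no count of the 4 gating genes. It shares the Oprk1/Bcl11a nuclei with the previous one, and as both groups were picked from the same counts its p-values are too small as well. Of 10952 genes tested with edgeR in the same design, 1070 were higher (9.77%) and 1173 lower (10.7%), together 20.5%. The groups did not overlap for 16.8% of genes. The other Gad nuclei are mixed: 319 lay in cluster 9, led by Gm14342 and Kit, 174 in clusters 0 and 6, 83 in cluster 7 and 41 in cluster 17, whose leading genes include the myelin genes Mag and Mbp. A further 41 lay in cluster 14, with the astrocyte gene Aqp4, 34 in cluster 4, led by the endothelial genes Flt1 and Cldn5 and the mural cell gene Rgs5, and 26 in cluster 12, which had the precursor gene Pdgfra among its leading genes. Set against the 425 of them with at least 2 counts of the glycinergic gating genes and more of these than of the other 4, 2543 of 10326 genes passed (24.6%). Of those, 1782 also passed against all other Gad nuclei, 1780 of them in the same direction. Oligodendrocyte marker sums were lower in the Oprk1/Bcl11a nuclei (380.1 to 650.1 CPM) than in the other Gad nuclei (697 to 1682 CPM), without overlap. The same held for the 4 mural cell markers, at 0 to 63.1 CPM in the Oprk1/Bcl11a nuclei and 65.4 to 521 CPM in the other Gad nuclei. Endothelial sums were 4.83 to 126 CPM in the Oprk1/Bcl11a nuclei and 49.3 to 782 CPM in the other Gad nuclei, and these overlapped, as did the astrocyte sums. The part of the vascular markers in the result was not tested. Without nuclei of 5 or more glial counts 2201 genes passed, 1773 of them among the 2243.

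Ramp3 was at 111, 145, 113 and 168 CPM in the Oprk1/Bcl11a nuclei and 27.3, 30.7, 29.1 and 27.4 CPM in the other Gad nuclei (log2 fold change 2.30, SE 0.16, adjusted p = 4.93e-08). Zfhx3 was at 1977, 1437, 1728 and 1826 CPM in the Oprk1/Bcl11a nuclei and 616, 406, 407 and 361 CPM in the other Gad nuclei (log2 fold change 2.06, SE 0.10, adjusted p = 2.42e-09). Foxp2 was at 292, 284, 466 and 326 CPM in the Oprk1/Bcl11a nuclei and 74.7, 76.4, 103 and 99.1 CPM in the other Gad nuclei (log2 fold change 2.01, SE 0.11, adjusted p = 5.87e-09). In all 3 genes the groups did not overlap. The teneurin gene Tenm3, a synaptic adhesion protein, was at 778, 976, 1359 and 1495 CPM in the Oprk1/Bcl11a nuclei and 237, 307, 387 and 175 CPM in the other Gad nuclei (log2 fold change 2.15, SE 0.18, adjusted p = 5e-07). Thsd7b stood at 255 ± 37.7 CPM in the Oprk1/Bcl11a nuclei and 53.6 ± 18.1 CPM in the other Gad nuclei (SD, n = 4 each, log2 difference 2.26 ± 0.15), but at 287 ± 26.6 CPM in the vglut2 nuclei, where the difference did not pass (-0.22 ± 0.09, adjusted p = 0.0726). Gsg1l, an AMPA receptor auxiliary subunit, Lrfn2, a synaptic adhesion protein, Cntnap5c, Syt6, Slc24a4, Zfhx4 and the plasma membrane calcium pump Atp2b4 were higher by log2 differences of 2.01 ± 0.19 (Atp2b4) to 2.23 ± 0.15 (Gsg1l).

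Ntn1 (GRCm38 chromosome 11, 68209364 to 68400823, minus strand), an axon guidance ligand, was at 8.85, 1.86, 1.21 and 1.16 CPM in the Oprk1/Bcl11a nuclei and 153, 183, 126 and 182 CPM in the other Gad nuclei (log2 fold change -6.14, SE 0.29, adjusted p = 1.49e-09). Kit (GRCm38 chromosome 5, 75574916 to 75656722, plus strand), a receptor tyrosine kinase known from cerebellar interneurons, was at 4.42, 7.43, 6.03 and 3.49 CPM in the Oprk1/Bcl11a nuclei and 251, 312, 369 and 367 CPM in the other Gad nuclei (log2 fold change -5.92, SE 0.20, adjusted p = 4.6e-11). The growth factor gene Bmp6 was at 8.85, 3.71, 3.62 and 0 CPM in the Oprk1/Bcl11a nuclei and 109, 95.9, 91.8 and 125 CPM in the other Gad nuclei (log2 fold change -5.07, SE 0.34, adjusted p = 5.19e-08). For these 3 genes the groups lay far apart in every library. The prominin gene Prom1, the receptor phosphatase genes Ptprz1 and Ptprt, Myo16, Ankfn1, the nuclear factor gene Nfib, Parm1, the procollagen protease gene Adamts2 and the GATA cofactor gene Zfpm2 were lower by log2 differences of -3.82 ± 0.15 (Zfpm2) to -4.59 ± 0.37 (Prom1). Myo16 was at 34.3 ± 27.3 CPM in the Oprk1/Bcl11a nuclei, 412 ± 53.9 CPM in the vglut2 nuclei and 533 ± 32.7 CPM in the other Gad nuclei (SD, n = 4 each). Ptprt and Ankfn1 were likewise lowest in the Oprk1/Bcl11a nuclei of the 3 groups.

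The difference in Slc32a1 between the 2 inhibitory groups did not pass (log2 fold change -0.05, SE 0.11, adjusted p = 0.792), with a sign that turned without vGluT2-Cre replicate 1. Of the 9 genes for GABA and glycine transmission, 1 was lower and none higher, beside 10.7 and 9.77% of all genes tested. Slc17a6 was at 11.6 to 26.0 CPM in the Oprk1/Bcl11a nuclei and 19.7 to 37.0 CPM in the other Gad nuclei, which did not pass (adjusted p = 0.0623). Of 5 tested opioid genes other than Oprk1, 3 were lower: Oprd1 (0, 0, 1.21 and 3.49 CPM in the Oprk1/Bcl11a nuclei, 32.8, 43.8, 21.3 and 45.9 CPM in the other Gad nuclei, log2 difference -4.30 ± 0.46), Penk (0, 16.7, 6.03 and 6.97 CPM in the Oprk1/Bcl11a nuclei, 12.8, 16.8, 33.7 and 26.6 CPM in the other Gad nuclei, log2 difference -1.54 ± 0.41) and Pnoc, the nociceptin precursor. Pnoc was at 0 in both groups of the Ucn3-Cre libraries. In the vGluT2-Cre libraries the Oprk1/Bcl11a nuclei held at most 1.16 CPM, against up to 38.5 CPM in the other Gad nuclei. The Penk call was lost with DESeq2 and without either vGluT2-Cre library. The Oprk1/Bcl11a and other Gad values of Penk overlapped. Of 9 neuropeptide and granin genes 4 were lower and none higher, among them Nts, the neurotensin precursor (0, 1.86, 0 and 4.65 CPM in the Oprk1/Bcl11a nuclei, 29.2, 75.4, 30.1 and 51.8 CPM in the other Gad nuclei) and Nxph1 (-2.32 ± 0.09 on the log2 scale).

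Transcription factors set the 2 inhibitory groups apart in both directions, with 9 of 34 higher, Sox14 among them through its 1 library, and 13 lower. The shares over all genes tested were 9.77% higher and 10.7% lower. Ebf3 (1.71 ± 0.11), Pbx3 (1.29 ± 0.10) and Irx2 (1.99 ± 0.24) were higher besides Zfhx3, Zfhx4 and Foxp2, all 3 named after their values were seen. Tfap2a, an AP-2 factor of inhibitory cerebellar neurons, was at 8.85, 0, 4.83 and 0 CPM in the Oprk1/Bcl11a nuclei and 45.6, 72.6, 61.7 and 77.7 CPM in the other Gad nuclei (log2 fold change -4.64, SE 0.45, adjusted p = 1.96e-06). Its relative Tfap2b was at 4.42, 0, 0 and 0 CPM in the Oprk1/Bcl11a nuclei and 67.4, 70.8, 95.5 and 54.0 CPM in the other Gad nuclei. The nuclear factor gene Nfib stood at 106, 29.7, 30.2 and 34.9 CPM in the Oprk1/Bcl11a nuclei and 638, 597, 653 and 659 CPM in the other Gad nuclei (log2 fold change -3.92, SE 0.20, adjusted p = 2.85e-09). Prdm8 was lower as well (-3.68 ± 0.43).

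**Figure D4:**
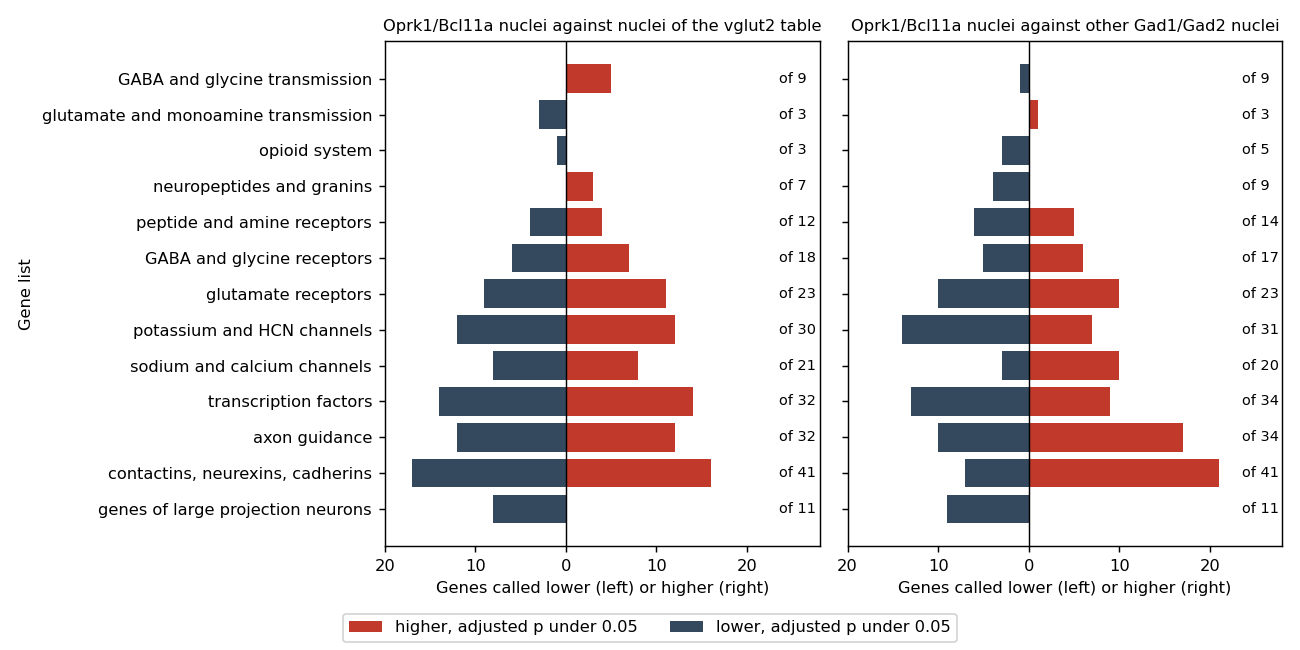
Number of genes (x axis) of 13 lists (y axis) called lower, to the left, or higher, to the right, in the Oprk1/Bcl11a nuclei at adjusted p under 0.05, against the vglut2 nuclei (left) and the other Gad nuclei (right), with the number tested at the edge. Genes of large projection neurons fell and none rose in both comparisons (8 and 9 of 11), and adhesion genes were more often higher than lower against the other Gad nuclei (21 and 7 of 41). Over all genes tested, 15.5% were higher and 16.1% lower on the left, and 9.77% higher and 10.7% lower on the right.

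Adhesion and guidance genes were more often higher than lower against the other Gad nuclei, whereas 9.77% of all genes tested were higher and 10.7% lower. Of 41 contactin, neurexin and cadherin family genes, 21 rose and 7 fell, with a median of 0.31 beside -0.01 over all genes tested. Cntn5, a contactin named after its values were seen, was at 2773, 2710.4, 3219.6 and 2661 CPM in the Oprk1/Bcl11a nuclei and 915, 807, 1041 and 581 CPM in the other Gad nuclei (1.86 ± 0.10 on the log2 scale). Cdh22 was at 53.1, 46.4, 25.3 and 37.2 CPM in the Oprk1/Bcl11a nuclei and 348, 517, 347 and 502 CPM in the other Gad nuclei (log2 fold change -3.48, SE 0.15, adjusted p = 5.73e-10), and Cdh20 fell too (-2.28 ± 0.18). Of 34 axon guidance genes, 17 rose and 10 fell, with a median of 0.42. The ephrin receptor Epha7 (385 to 566 CPM in the Oprk1/Bcl11a nuclei, 76.2 to 177 CPM in the other Gad nuclei) and the plexin Plxna4 (1075 to 1208 CPM in the Oprk1/Bcl11a nuclei, 311 to 387 CPM in the other Gad nuclei) rose, and the netrin receptor Unc5b fell (-1.92 ± 0.25). Slit1 belongs to the gate; the other ligand Slit2 rose (1.50 ± 0.14), and so did the receptor gene Robo1 (0.85 ± 0.08), both named after their values were seen.

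Of 20 sodium and calcium channel genes, 10 were higher and 3 lower than in the other Gad nuclei. Over all genes tested, 9.77% were higher and 10.7% lower. Cacna2d1 was at 469, 524, 589 and 496 CPM in the Oprk1/Bcl11a nuclei and 162, 126, 193 and 95.4 CPM in the other Gad nuclei (log2 fold change 1.97, SE 0.13, adjusted p = 3.91e-08). Cacna2d3, a subunit of the same family, was at 88.5, 91.0, 73.6 and 69.7 CPM in the Oprk1/Bcl11a nuclei and 911, 1075, 1264 and 1137 CPM in the other Gad nuclei (log2 fold change -3.77, SE 0.12, adjusted p = 4.6e-11). The T-type calcium channel gene Cacna1i (1.88 ± 0.25) and the sodium channel gene Scn3a (1.47 ± 0.12) were higher. Of 31 potassium and HCN channel genes, 7 rose and 14 fell, with a median of -0.36. The fallers included Kcnn3 (-2.41 ± 0.23), which makes a calcium-activated channel, and Kcna1 (-2.16 ± 0.15), Kcna2 (-1.87 ± 0.14) and Kcnj3 (-1.76 ± 0.17). None of 11 genes of large projection neurons rose and 9 fell, among them Syt2 (31.0, 55.7, 7.24 and 17.4 CPM in the Oprk1/Bcl11a nuclei, 235, 336, 218 and 296 CPM in the other Gad nuclei), Vamp1 (-1.09 ± 0.18), the calcium buffer Pvalb (-0.99 ± 0.13) and the neurofilament gene Nefh (-0.80 ± 0.19). The Nefh call was lost with DESeq2 and without vGluT2-Cre replicate 2.

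Receptor genes for GABA, glycine and glutamate again split. Of 17 GABA and glycine receptor genes, 6 rose and 5 fell against the other Gad nuclei, beside 9.77 and 10.7% of all genes tested. Gabrb2 was at 88.5, 52.0, 44.6 and 48.8 CPM in the Oprk1/Bcl11a nuclei and 242, 237, 276 and 244 CPM in the other Gad nuclei (log2 fold change -2.18, SE 0.15, adjusted p = 6.59e-08), and Gabrd (-2.05 ± 0.31) fell with it. Of 23 glutamate receptor genes, 10 rose and 10 fell. Grm7, a presynaptic metabotropic receptor, was at 1659, 1487, 2099 and 1553 CPM in the Oprk1/Bcl11a nuclei and 663, 518, 614 and 387 CPM in the other Gad nuclei (log2 fold change 1.73, SE 0.10, adjusted p = 1.19e-08). All 5 kainate receptor genes, Grik1 to Grik5, rose, whereas the AMPA receptor gene Gria3 fell (-1.67 ± 0.11). Gria1 was at 8.85, 0, 0 and 0 CPM in the Oprk1/Bcl11a nuclei and 21.9, 30.7, 10.9 and 26.6 CPM in the other Gad nuclei.

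Of 14 peptide and amine receptor genes, 5 rose and 6 fell against the other Gad nuclei, beside 9.77 and 10.7% of all genes tested. The adrenergic receptor Adra1b was at 0, 1.86, 6.03 and 0 CPM in the Oprk1/Bcl11a nuclei and 43.7, 84.7, 76.3 and 79.9 CPM in the other Gad nuclei (log2 fold change -4.83, SE 0.39, adjusted p = 3.13e-07), and Htr4 (-4.06 ± 0.48) and Htr7 (-2.13 ± 0.34) were lower too. Lepr was at 11.1 to 53.1 CPM in the Oprk1/Bcl11a nuclei and 7.40 to 10.9 CPM in the other Gad nuclei (log2 fold change 1.83, SE 0.32, adjusted p = 0.000682). Crhr1, the receptor for corticotropin-releasing hormone and urocortin, and Htr2c, a serotonin receptor, were named after their values were seen, because they lay between the other groups. Crhr1 was at 26.5, 53.8, 29.0 and 34.9 CPM in the Oprk1/Bcl11a nuclei, 73.0, 86.0, 71.8 and 70.9 CPM in the vglut2 nuclei (log2 fold change -1.07, SE 0.17, adjusted p = 9.4e-06) and 16.4, 21.4, 8.30 and 5.92 CPM in the other Gad nuclei (log2 fold change 1.72, SE 0.29, adjusted p = 0.000468). Htr2c was at 195, 180.1, 235 and 213 CPM in the Oprk1/Bcl11a nuclei, 531, 413, 595 and 442 CPM in the vglut2 nuclei (log2 fold change -1.26, SE 0.09, adjusted p = 4.69e-12) and 63.8, 75.4, 107 and 64.3 CPM in the other Gad nuclei (log2 fold change 1.45, SE 0.13, adjusted p = 6.65e-07). For both genes the 4 libraries of each group stayed apart from those of the other groups.

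The promoters of genes that lead these comparisons were searched for TAATTA, a core sequence bound by many homeodomain proteins, the class that Zfhx3 and Zfhx4 belong to. The motif reads the same on both strands. Of the 19 genes named as higher in either comparison, 14 had a promoter in the RefSeq-based table of build GRCm38.p6, with 16 promoters in all. In the 250 bases before the start, 3 of these 16 held TAATTA (18.8%), against 1575 of 32536 promoters of the table, identical ones counted once (4.84%). The genes were picked by their levels and the motif with Zfhx3 and Zfhx4 in view. The difference between these shares rests on 3 matches and was not tested. They are shown because they are the upstream sequences of genes called higher beside Zfhx3 and Zfhx4, in lower case with TAATTA in capitals. A match is a description, not a binding site.
Syt6 (chr3:103574995-103575244, plus strand): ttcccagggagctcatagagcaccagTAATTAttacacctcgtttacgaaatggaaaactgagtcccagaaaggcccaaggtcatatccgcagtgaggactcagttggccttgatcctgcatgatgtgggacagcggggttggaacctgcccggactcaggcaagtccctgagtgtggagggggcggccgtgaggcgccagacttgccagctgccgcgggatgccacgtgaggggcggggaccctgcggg
Tenm3 (chr8:48674691-48674940, minus strand): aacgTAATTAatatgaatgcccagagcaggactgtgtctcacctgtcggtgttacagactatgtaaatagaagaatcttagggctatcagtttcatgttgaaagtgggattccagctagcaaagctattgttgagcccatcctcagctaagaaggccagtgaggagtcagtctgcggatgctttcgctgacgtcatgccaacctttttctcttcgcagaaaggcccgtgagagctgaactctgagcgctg
Adarb2 (chr13:8202616-8202865, plus strand): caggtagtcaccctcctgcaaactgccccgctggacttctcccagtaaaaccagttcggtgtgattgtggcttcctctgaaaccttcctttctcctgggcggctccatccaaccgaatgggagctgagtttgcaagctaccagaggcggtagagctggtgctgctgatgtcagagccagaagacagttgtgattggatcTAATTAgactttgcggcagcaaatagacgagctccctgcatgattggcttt
The motif began 224 bases before the start in Syt6, 246 in Tenm3 and 51 in Adarb2. Levels of Syt6 and Tenm3 were higher than in both other groups. Adarb2 was higher than in the vglut2 nuclei and did not pass against the other Gad nuclei, with 1296 ± 91.1 CPM in the Oprk1/Bcl11a nuclei and 1254 ± 114 CPM in the other Gad nuclei (adjusted p = 0.362).

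Between the mouse lines, no gene passed within the Oprk1/Bcl11a nuclei (0 of 9240 tested, 0.0%). With edgeR, 266 genes had an unadjusted p under 0.05, and DESeq2 called 2 genes, Ptprt and Gm44644, which are named because the count is small. Ptprt stood at 115 and 35.3 CPM in Ucn3-Cre replicates 1 and 2, against 6.03 and 4.65 CPM in vGluT2-Cre replicates 1 and 2 (log2 fold change 3.61 with edgeR, adjusted p = 0.863; 3.78 with DESeq2, adjusted p = 0.0112). Gm44644 was listed at 0 in every nucleus of both Ucn3-Cre libraries and was at 79.6 and 59.2 CPM in the Oprk1/Bcl11a nuclei of the vGluT2-Cre libraries. Gm47757 (29.0 and 45.3 CPM) and Rgs9 (36.2 and 32.5 CPM), among the 5 genes with the smallest p, were likewise listed at 0 in all nuclei of the Ucn3-Cre libraries. The last of the 5, the endothelial gene Cldn5, was at 17.7 and 52.0 CPM in Ucn3-Cre replicates 1 and 2, against 0 in both vGluT2-Cre replicates. It was the only gene called when genes not counted in every library were left out (adjusted p = 0.0151), an alternative chosen after seeing the data. Cldn5 is 1 of the 4 endothelial markers, whose sums are given above.

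YFP, listed in the tables without its sequence and named like the protein of the Ai32 reporter, was low in the Oprk1/Bcl11a nuclei of both lines. It was at 22.1, 16.7, 26.5 and 19.7 CPM in the Oprk1/Bcl11a nuclei and 18.6, 18.1, 59.6 and 40.1 CPM in the vglut2 nuclei. Of these values, the highest were in the vglut2 nuclei of the vGluT2-Cre line. Against the vglut2 nuclei the difference was -0.85 ± 0.23 on the log2 scale with edgeR (adjusted p = 0.00579), and it did not pass with DESeq2 or without either vGluT2-Cre library. A YFP count was found in 9.76 and 7.22% of Oprk1/Bcl11a nuclei in the Ucn3-Cre libraries (4 of 41 and 7 of 97), against 14.8 and 16.8% of vglut2 nuclei and 0.963 and 1.80% of oligodendrocytes. It was found in 15.9 and 16.2% of Oprk1/Bcl11a nuclei in the vGluT2-Cre libraries, against 37.9 and 41.5% of vglut2 nuclei and 5.78 and 10.9% of oligodendrocytes, which have fewer counts. Thinned to 3000 counts, the shares in the Ucn3-Cre libraries were 10.3 and 6.32% of Oprk1/Bcl11a nuclei, 3.49 and 6.04% of vglut2 nuclei and 1.00 and 1.82% of oligodendrocytes. In the vGluT2-Cre libraries they were 9.16 and 7.62% of Oprk1/Bcl11a nuclei, 21.1 and 13.4% of vglut2 nuclei and 6.06 and 9.66% of oligodendrocytes, so the Oprk1/Bcl11a share was above the oligodendrocyte share in 3 libraries and below it in vGluT2-Cre replicate 2. In the other Gad nuclei YFP was at 11.2 to 55.5 CPM, which did not pass against the Oprk1/Bcl11a nuclei (adjusted p = 0.26). Thinned to 3000 counts, the other Gad share was 11.1, 3.61, 7.42 and 16.25%. It was above the vglut2 share in Ucn3-Cre replicate 1 and vGluT2-Cre replicate 2 only.

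The Oprk1/Bcl11a nuclei made up 0.955 and 1.47% of all nuclei in Ucn3-Cre replicates 1 and 2 (95% exact Clopper-Pearson intervals 0.687 to 1.29 and 1.196 to 1.79%) and 2.34 and 2.11% in vGluT2-Cre replicates 1 and 2 (1.96 to 2.77 and 1.73 to 2.55%). The intervals cover counting error only. The mean was 1.21 ± 0.366% for Ucn3-Cre and 2.23 ± 0.162% for vGluT2-Cre (SD over 2 libraries each), a difference of -1.01 percentage points. The two-sided exact permutation p was 0.333, the smallest that 2 libraries against 2 allow. The gate needs counts, so the share was also taken among nuclei with at least 3000 counts. This cut kept 39, 95, 131 and 105 of the Oprk1/Bcl11a nuclei and 561, 1339, 1698 and 2984 of all nuclei. The part of depth in the share difference was not tested. Among nuclei with at least 3000 counts the shares were 6.95 and 7.09% for Ucn3-Cre, against 7.71 and 3.52% for vGluT2-Cre, and the difference turned to 1.41 percentage points (exact permutation p = 1). As a share of all nuclei with at least 2 counts of Gad1 and Gad2 outside the vglut2 table, they were 26.8 and 28.9% in the Ucn3-Cre line and 28.2 and 36.7% in the vGluT2-Cre line (exact permutation p = 0.667).

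**Figure D5:**
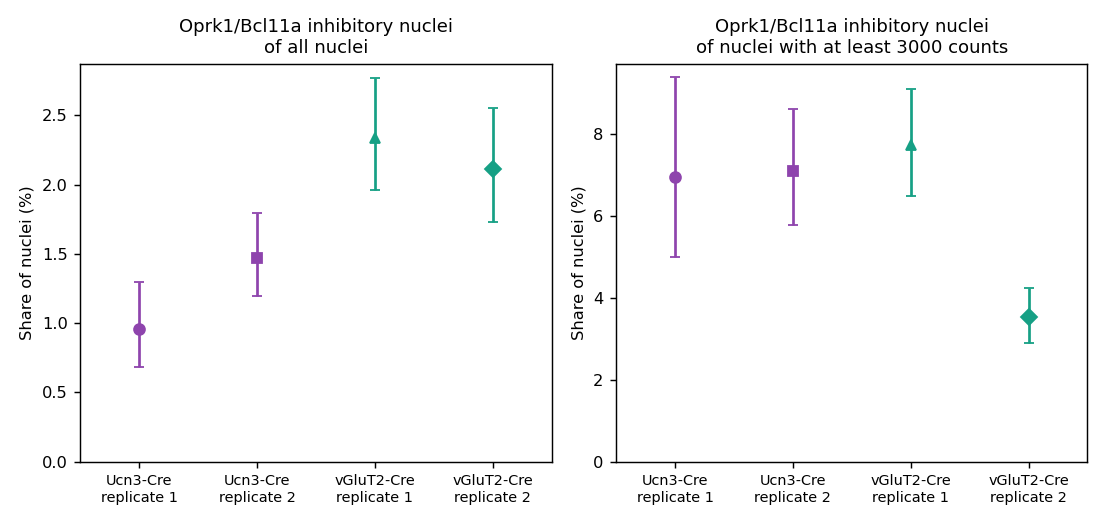
Share of Oprk1/Bcl11a inhibitory nuclei (y axis, percent) in each of the 4 libraries (x axis), of all nuclei (left) and of nuclei with at least 3000 counts (right), with 95% exact Clopper-Pearson intervals as bars. The Ucn3-Cre libraries lie lower on the left, at 0.955 and 1.47%, but at 6.95 and 7.09% on the right they lie between the vGluT2-Cre libraries.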

How the data were processed

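Cell Ranger 3.1.0 and Seurat 3.2 were used with build mm10, per the submitters' processing notes. The deposited values are expected counts per gene and nucleus, mostly just below whole numbers; the step that made them is not given in the sources used here. They were rounded to whole counts before gating and summing. The members of the set, the 13 gene lists, the 16 marker lists and the tests were chosen with earlier results of these data known. Counts were summed per library and group and tested in R 4.3.3 with the quasi-likelihood test of edgeR 4.0.16 (TMM factors, low genes removed by filterByExpr, Benjamini-Hochberg adjustment over all genes tested, threshold 0.05), with the library as block except between lines. The 10 gating genes stayed in library sizes and out of the tests. SE is the absolute log2 fold change over the root of F. DESeq2 1.42.0 was an alternative. CPM were not scaled by TMM. Named genes were the 12 with the largest log2 fold change in each direction among those called, moving the same way in 4 libraries and at a mean of at least 100 CPM in the higher group, without unnamed gene models, and up to 4 called members of each list at 20 CPM or more. Outside this rule, Abat, Aqp4, Lhx1, Lmx1a, Gabbr1, Gria3, Grik1 to Grik5, Lepr, Crhr1, Htr2c and the genes so marked in the text were named after their values were seen. Scrublet in scanpy 1.11.5 marked 42 nuclei with its automatic threshold, so the top scores, 0.8% per 1000 nuclei (947 in all), were removed as an alternative. Clusters used 2000 variable genes, 30 components, 15 neighbours and Leiden resolution 1. Oligodendrocytes for background shares had at least 5 counts of oligodendrocyte markers and none of Gad1 and Gad2, outside the vglut2 table. Some genes that the rule names are not reported here. Scripts were tested on simulated data. Gene positions were read from GENCODE vM21 (GRCm38), and the vglut2 table held the same values as the library tables for its nuclei.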

Additional observations from a re-analysis of the deposited data

How the results depend on the processing

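Called genes against the vglut2 nuclei numbered 3363, and 1900 with DESeq2 or 1942 without the library block; leaving out each library gave 2466 to 3285. Against the other Gad nuclei 2243 genes were called, and 1172 with DESeq2, 1239 without the block and 1393 to 2299 with a library left out, the lowest without vGluT2-Cre replicate 2. The causes were not tested, beyond fewer samples where a library was left out. Between lines, 0 genes became 2 with DESeq2, 3 with the stricter gate (Gm44644, mt-Atp6 and mt-Co3), 1 among genes counted in every library and 0 to 30 with a library left out, 30 without vGluT2-Cre replicate 1 and 15 without Ucn3-Cre replicate 2. The names of nuclei in both replicate 2 libraries carry the same tag, whose meaning the labels do not give, whereas the tags of the replicate 1 libraries differ. Deviations of same-numbered libraries from the line means correlated at 0.038 across 9240 genes, and the replicate block gave 6 called genes. Whether any libraries shared a batch was not tested. The share difference between lines, -1.01 percentage points, ranged from -1.27 to -0.75 with a library left out and turned to 1.41 among nuclei with at least 3000 counts.

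Of 142 gene results, 1974 repeats kept direction and call, 34 lost the call, 16 gained it and 9 turned sign. A repeat without an adjusted p was counted as kept if its direction held. Those that turned had not passed. Oprm1 turned to -0.32 on the log2 scale with the stricter gate against the vglut2 nuclei (-0.27 to 0.22 with a library left out), and against the other Gad nuclei to -0.11 with only glycinergic-gate nuclei (-0.19 to 0.43). YFP turned to 0.023 with only glycinergic-gate nuclei (-0.71 to 0.013 with a library left out). With a library left out, Slc32a1 ran from -0.11 to 0.032 against the other Gad nuclei and from -0.23 to 0.38 between lines. The stricter gate asked for at least 3 counts in both positive sums. Depth limits genes near 1 count per library.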
